A study of Mus musculus with 2 samples.

Results

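The 40 genes described here act in G2 and mitosis, and all 40 had a row among the 31055 features counted in both libraries. They were chosen by name, as genes whose products drive or carry out cell division. By role they comprise 9 mitotic kinases, cyclins and their partners, 3 genes of the chromosomal passenger complex, 9 of the kinetochore and the spindle checkpoint, 3 partners of the anaphase-promoting complex, 9 kinesins and other spindle proteins, 2 genes of cytokinesis and 5 of chromosome structure.

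A dividing cell copies its DNA in S phase and then makes the transcripts of G2 and mitosis, whose products condense the chromosomes, build the spindle, attach each chromosome to it and split the cell. CDK1 bound to a B-type cyclin starts mitosis, and the anaphase-promoting complex with CDC20 ends it by marking cyclin B for destruction. In resting cells the DREAM complex holds most of these genes silent through the cell cycle genes homology region (CHR) of their promoters, and in cycling cells B-MYB and FOXM1 act there, often beside CCAAT boxes that NF-Y binds. In the pituitary after birth, both stem cells (SCs), which express SOX2 and SOX9, and young hormone cells divide.

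Pituitaries were taken at postnatal day 3 from Sox9iresGFP/+ mice, in which GFP is made from the *Sox9* locus, and GFP+ cells were sorted by flow cytometry before droplet sequencing. There was 1 male and 1 female library, each from 3 pooled pituitaries, and all cells share the reporter allele and the age. Cells that have lost SOX9 can still carry GFP, so a GFP+ sort also takes in cells that have begun to differentiate, and it sets which endocrine and mesenchymal cells were seen. With 1 library per sex no test between samples could be made, and the intervals below cover counting error only.

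After filtering, 10410 male and 5711 female cells remained, with 105883748 and 62830305 unique molecular identifiers (UMIs, each standing for a captured transcript) and medians of 8902.5 and 9789 UMIs per cell. Classes were set by raw UMIs of lineage markers, none of them among the 40 genes. SCs, with 3 or more UMIs of *Sox2* and *Sox9* and no rule of another class met, numbered 3285 and 3450 cells (male and female, an order kept throughout). Differentiating cells, with 2 or more UMIs of *Lef1*, *Shh* and *Pou3f4*, numbered 956 and 755. Endocrine cells numbered 1944 and 550, of which 795 and 278 were of the POU1F1, 232 and 128 of the POMC and 917 and 144 of the gonadotroph lineage. Mesenchymal cells, with 10 or more UMIs of 5 genes such as *Dcn* and *Col1a1*, numbered 740 and 339. *Dcn*, a gene of that rule, was at 4089.7 and 5478 in them and 2.98 and 0.974 in SCs, in UMIs per 1000000 (CPM). The rule itself sets this difference, so it is no check of the classes. In SCs 0 UMIs of *Ptprc*, which marks leukocytes, were counted. Of the differentiating cells 73% and 80%, of the endocrine cells 26.5% and 34.2% and of the mesenchymal cells 11.6% and 11.5% also held 3 or more UMIs of *Sox2* and *Sox9*, and 18 cell barcodes occurred in both libraries.

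The promoters are shown first, because the CHR and the CCAAT box are sequence features that G2 and mitosis genes are known to share. RefSeq promoters on GRCm38.p6, from 250 bases before to 50 bases after the transcription start, matched 34 of the 40 genes by symbol. The CHR letters, TTTGAA or the variant TTTAAA on either strand, stood in 29 of the 34 (85.3%), against 27.8% of all 27025 genes with a promoter. TTTGAA by itself stood in 76.5% of them and in 18.1% of all. CCAAT, on either strand, stood in 26 (76.5%) against 37.9% of all, and both motifs in 24 (70.6%) against 10.9%. The E2F letters, searched as TTTCCCGC and also as TTTGGCGC on both strands, were in 0 of the 34, in 1.63% of all, in 9 of 25 S phase promoters (36%) and in 15.4% of 39 promoters of other G2 and mitosis genes. The CHR letters stood in 24% of the S phase promoters and 61.5% of the other G2 and mitosis promoters, and CCAAT in 64% and 69.2%, so neither motif was confined to the 40 genes. Motifs were counted also where they overlapped, and a match is a description of the sequence, not a bound site.

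The stretches below show these letters before the start of 8 genes to which the results return: the kinase genes *Cdk1* (chr10:69352939-69353022 on the minus strand) and *Plk1* (chr7:122159325-122159434 on the plus strand), the anaphase activator *Cdc20* (chr4:118437353-118437453 on the minus strand), the spindle motor *Kif11* (chr19:37376272-37376381 on the plus strand), *Top2a* (chr11:99024190-99024299 on the minus strand), *Mki67* (chr7:135716380-135716579 on the minus strand), *Hmgb2* (chr8:57511733-57511842 on the plus strand) and, as a gene without them, *Nusap1* (chr2:119618188-119618297 on the plus strand). Each is written 5′ to 3′ along its gene and lies outside the annotated transcript. Capitals mark the CHR and CCAAT letters on either strand.
Cdk1: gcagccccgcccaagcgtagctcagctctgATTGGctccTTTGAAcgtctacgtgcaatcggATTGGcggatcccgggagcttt
Plk1: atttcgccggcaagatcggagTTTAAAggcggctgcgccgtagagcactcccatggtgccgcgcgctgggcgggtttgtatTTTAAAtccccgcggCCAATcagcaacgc
Cdc20: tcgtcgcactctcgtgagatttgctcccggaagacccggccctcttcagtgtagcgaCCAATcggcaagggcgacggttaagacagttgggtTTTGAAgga
Kif11: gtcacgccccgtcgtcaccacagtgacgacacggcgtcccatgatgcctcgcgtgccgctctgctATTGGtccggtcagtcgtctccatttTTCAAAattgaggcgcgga
Top2a: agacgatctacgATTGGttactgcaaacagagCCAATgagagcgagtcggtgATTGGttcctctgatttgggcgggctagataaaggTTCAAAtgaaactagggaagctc
Mki67: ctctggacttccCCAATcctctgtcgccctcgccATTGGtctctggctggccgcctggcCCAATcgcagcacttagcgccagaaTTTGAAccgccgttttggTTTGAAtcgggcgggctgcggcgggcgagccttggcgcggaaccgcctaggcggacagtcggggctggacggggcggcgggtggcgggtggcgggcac
Hmgb2: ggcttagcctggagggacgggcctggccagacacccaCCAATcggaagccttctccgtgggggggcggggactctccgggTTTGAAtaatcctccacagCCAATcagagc
Nusap1: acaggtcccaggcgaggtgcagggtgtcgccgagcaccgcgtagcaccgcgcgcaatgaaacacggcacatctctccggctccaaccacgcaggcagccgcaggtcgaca
The *Mki67* stretch holds 3 CCAAT matches upstream of 2 CHR matches, and that of *Top2a* 3 CCAAT matches upstream of 1 CHR match. *Nusap1*, *Nuf2* and *Knstrn* were the 3 genes with neither motif in the 300 bases.

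The 40 genes together were highest in SCs among the 4 classes in either library, and lowest in differentiating cells as the classes were set. In 2 alternatives given below another class fell below differentiating cells, in the female or in both libraries. Female endocrine and mesenchymal cells also changed places in some alternatives. Per 1000000 UMIs of the summed cells, male SCs had 4220.5 CPM (4201 to 4239.6) and female SCs 3352 CPM (3334 to 3371), with 95% Poisson intervals in parentheses. Differentiating cells had 867 CPM (851 to 882) and 862 CPM (845 to 881), which is 0.205 and 0.257 of the level in SCs. Endocrine cells had 1212 CPM (1200.1 to 1224) and 989.8 CPM (968 to 1011), or 0.287 and 0.295 of it. Mesenchymal cells had 1624 CPM (1595 to 1653) and 1029.8 CPM (995 to 1066), or 0.385 and 0.307 of it. SCs thus stood far above the rest, and the endocrine and mesenchymal intervals overlapped among female cells.

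Within endocrine cells the POU1F1 lineage, which gives somatotrophs, lactotrophs and thyrotrophs, stood highest among male and female cells, with 1680.2 CPM (1658 to 1703) and 1148 CPM (1114 to 1182). The POMC lineage of corticotrophs and melanotrophs had 1188 CPM (1159 to 1218) and 955 CPM (915 to 997). The gonadotroph lineage had 787 CPM (772 to 802) and 749 CPM (713 to 786), the lowest of the 3. The ratio of POU1F1 to gonadotroph lineage was 2.13 (2.07 to 2.2) and 1.53 (1.42 to 1.66). Of the 40 genes 25 had 50 or more UMIs summed over both lineages in each library. Of these, 23 were higher in the POU1F1 lineage in both (37.0% of features) and 11 at least 2-fold higher (3.42% of features). A scarce gene can pass this filter through the lineage where it is higher. These counts thus describe the genes that passed and are not support for a lineage difference. *Cdk1* was at 56.1 and 38.1 CPM in the POU1F1 and 16.6 and 11.8 CPM in the gonadotroph lineage. Cells with 3 or more stem marker UMIs were 31.6% and 30.2% of the POU1F1 and 22.1% and 34% of the gonadotroph lineage, and their part in the difference was not tested.

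**Figure D1:**
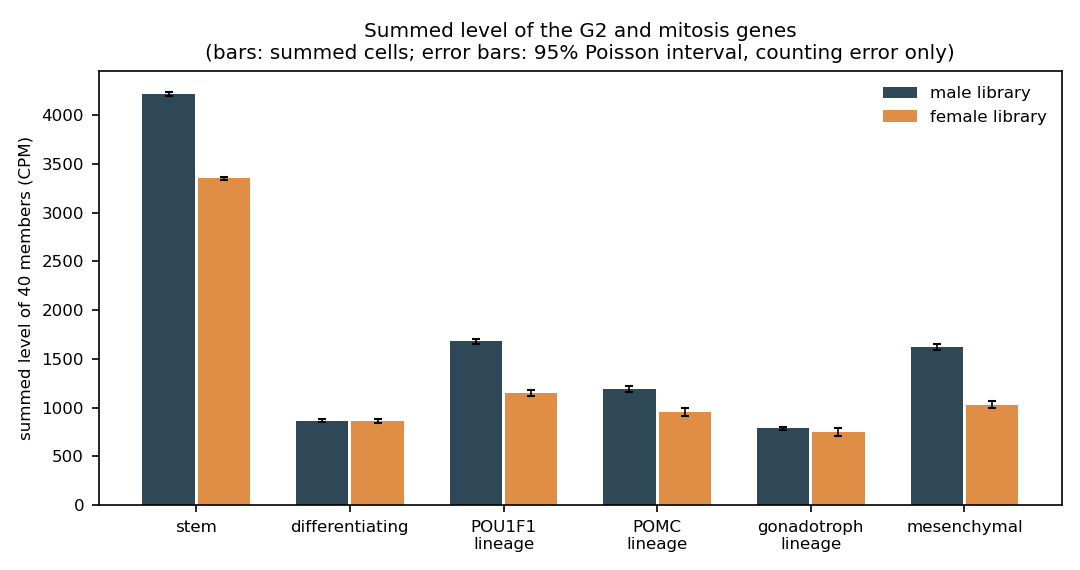
Summed level of the 40 G2 and mitosis genes in CPM (vertical axis, from 0) by class and lineage, with 95% Poisson intervals as error bars and the male and female libraries side by side. SCs stand at 4220.5 CPM and 3352 CPM, above every other class shown.

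These sums moved with cells that carry markers of more than 1 class. Without endocrine and mesenchymal cells that hold stem marker UMIs or meet another class rule, a choice made after seeing the data, the endocrine ratio went from 0.287 to 0.173 in male and from 0.295 to 0.247 in female cells, and the female mesenchymal ratio to 0.23. Each of these is below the differentiating ratio of the same library, 0.205 or 0.257, so endocrine cells were then lower than differentiating cells in both libraries. Differentiating cells with stem marker UMIs were not removed there. Without cells of the highest doublet scores the mesenchymal ratio was 0.41 and 0.194, and among female cells it lay below the differentiating ratio of 0.231. *Hmgb2* held 25.5% and 27.5% of the UMIs of the 40 genes in SCs. When it was left out with *Bub3*, *Smc2* and *Smc4*, which resting cells also express, the differentiating ratio was 0.142 and 0.185.

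Gene by gene, all 40 were highest in SCs among the 4 classes in both libraries. As the classes were set, 33 were lowest in differentiating cells in both. The share of all features with either order was not counted. In differentiating cells 39 of 40 were at least 2-fold lower than in SCs in both libraries, against 14.0% of the features with enough UMIs. Their median ratio was 0.135 and 0.179, against 0.982 and 0.974 over those features. In endocrine cells 39 of 40 were at least 2-fold lower (12.2% of features), with medians of 0.253 and 0.254, and in mesenchymal cells 35 of 40 (12.5%), with medians of 0.404 and 0.285. All 40 were lower by some amount in each of the 3 classes, as were 46.2%, 43.1% and 46.4% of features, and 0 were 2-fold higher, against 4.49%, 9.01% and 9.70%. All 40 had the 50 UMIs per library that these counts required, summed over SCs and the other class. A scarce gene can pass this filter through SCs, where it is higher. These counts, and those of the other lists below, thus describe the genes that passed and are no test of a class difference.

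**Figure D2:**
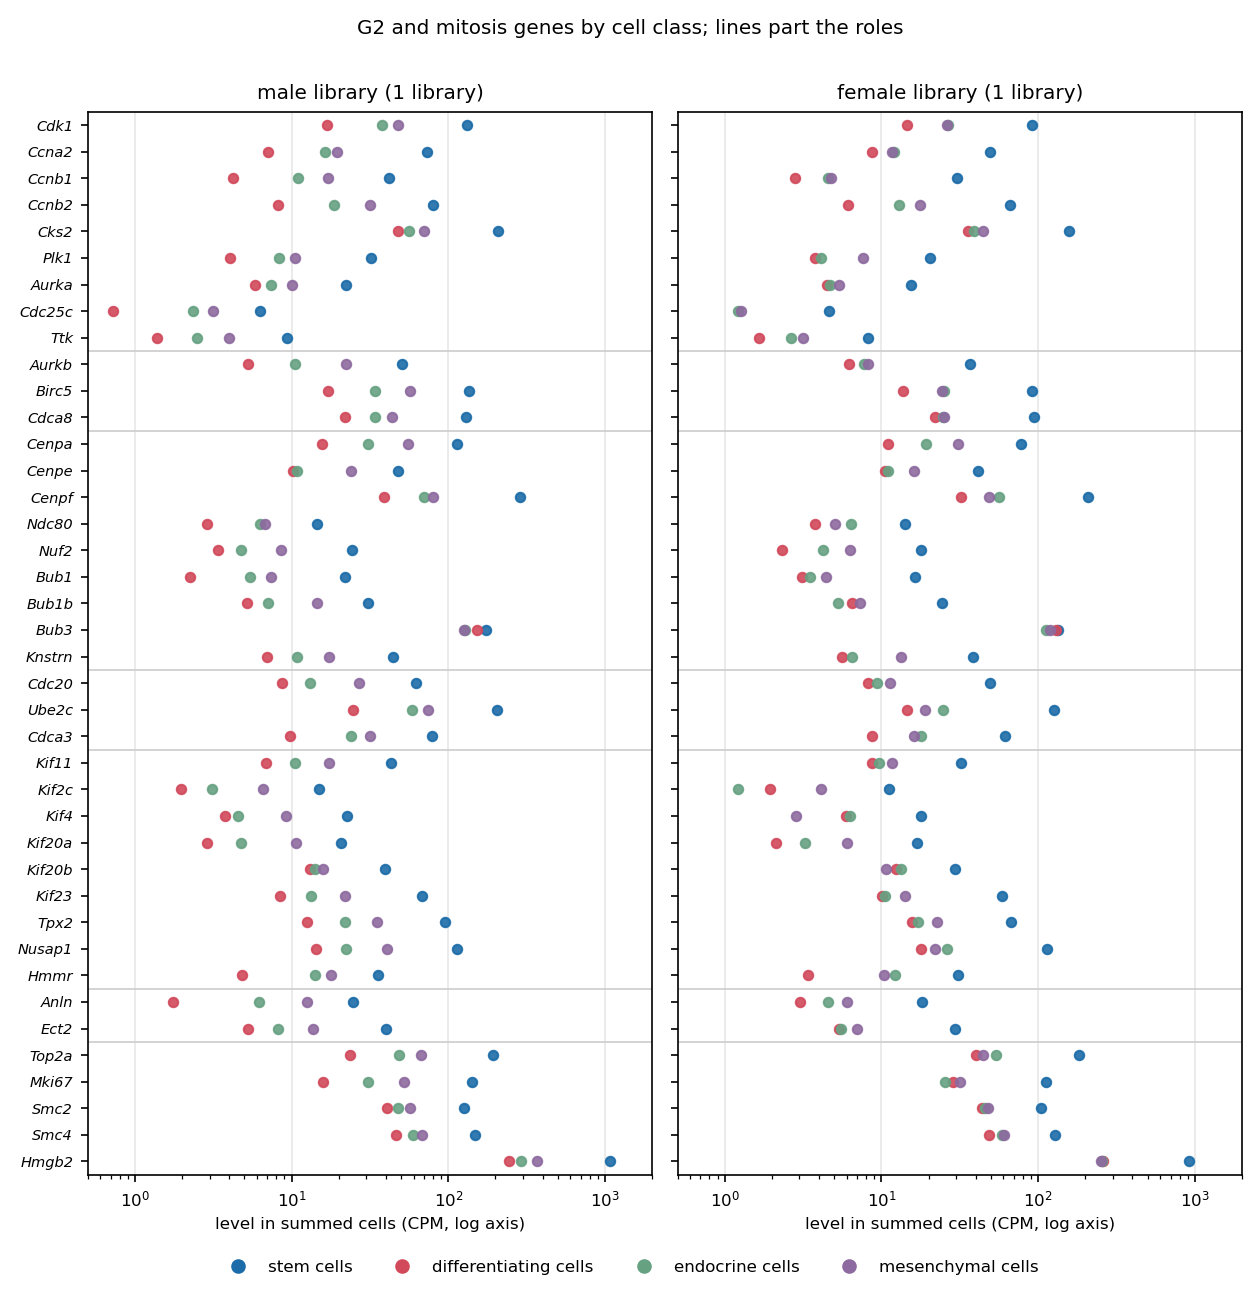
Level of each of the 40 genes in CPM of the summed cells (log axis) in SCs, differentiating, endocrine and mesenchymal cells of the male and the female library. The SC point is the highest of the 4 for all 40 genes, and the points of *Bub3* lie closest together.

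The kinases and cyclins that start mitosis were together at 0.159 and 0.177 of their SC level in differentiating cells. *Cdk1* (ENSMUSG00000019942, mm10 chromosome 10 from 69335146 to 69352938), the kinase at the centre of mitotic entry, was at 131 and 90.7 CPM in SCs and at 16.9 and 14.6 CPM in differentiating cells, a ratio of 0.129 (0.11 to 0.15) and 0.161 (0.132 to 0.195). *Ccnb1* (ENSMUSG00000041431, mm10 chromosome 13 from 100778650 to 100786570), one of its cyclin B partners, was at 41.7 and 30.3 CPM in SCs and 4.21 and 2.82 CPM in differentiating cells. *Ccnb2*, the other, was at 79.3 and 66.1 CPM against 8.2 and 6.13 CPM. Both cyclin B genes had low ratios in either library, 0.101 and 0.093 for *Ccnb1* and 0.103 and 0.0928 for *Ccnb2*. *Ccna2*, the cyclin A of S phase and G2, was at 73.2 and 49.2 CPM in SCs and 7.11 and 8.76 CPM in differentiating cells. *Plk1*, whose kinase activates cyclin B-CDK1, had 32.1 and 20.5 CPM against 4.06 and 3.8 CPM. *Aurka*, the centrosomal Aurora kinase, kept a larger share, with ratios of 0.262 and 0.288. *Ttk*, a spindle checkpoint kinase gene, had ratios of 0.147 and 0.201, and *Cks2*, whose small product binds CDKs, 0.23 and 0.226. *Cdc25c*, the phosphatase that activates CDK1, was scarce in SCs, at 6.29 and 4.63 CPM, and 10 and 3 UMIs of it lay in differentiating cells. Its female ratio, 0.0631 (0.0112 to 0.216), is therefore loosely bounded.

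The chromosomal passenger genes stood together at 0.141 and 0.188 of their SC level in differentiating cells. *Aurkb*, the kinase of that complex, was at 50.7 and 36.9 CPM in SCs and 5.3 and 6.23 CPM in differentiating cells. *Birc5*, which encodes survivin, had ratios of 0.126 and 0.15, and *Cdca8*, which encodes borealin, 0.171 and 0.231. In mesenchymal cells *Aurkb* was at 22.3 and 8.21 CPM, so the libraries lay further apart there than in differentiating cells.

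Among the kinetochore genes *Cenpf*, a large kinetochore protein, was at 286 and 207 CPM in SCs and 39.1 and 32.1 CPM in differentiating cells. *Cenpa*, the histone variant that marks centromeres, had ratios of 0.138 and 0.142. *Ndc80* and *Nuf2*, whose products bind microtubules in 1 complex, had ratios of 0.2002 and 0.269, and 0.14 and 0.13. The kinetochore motor gene *Cenpe* had 0.214 and 0.257, and *Knstrn*, which encodes a kinetochore protein, 0.157 and 0.148. The checkpoint gene *Bub1* was at 21.9 and 16.5 CPM in SCs and 2.25 and 3.11 CPM in differentiating cells, and *Bub1b*, which encodes BUBR1, had ratios of 0.171 and 0.269. *Bub3* (ENSMUSG00000066979, mm10 chromosome 7 from 131560222 to 131571895), which brings BUB1 to the kinetochore, stood apart, with 173 and 135 CPM in SCs and 152 and 129.7 CPM in differentiating cells. Its ratio was 0.875 (0.819 to 0.934) and 0.963 (0.887 to 1.04), so counting error spans the female difference. *Bub3* was the exception in endocrine cells too, at 128 and 112 CPM, although its promoter held 1 CHR and 2 CCAAT matches.

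The partners of the anaphase-promoting complex were at 0.125 and 0.133 of their SC level in differentiating cells. *Cdc20* (ENSMUSG00000006398, mm10 chromosome 4 from 118432901 to 118437352), which turns the complex on, was at 62.3 and 49.6 CPM in SCs and 8.64 and 8.27 CPM in differentiating cells. *Ube2c*, its ubiquitin-conjugating enzyme, was at 205 and 126 CPM against 24.7 and 14.5 CPM. *Cdca3* had ratios of 0.124 and 0.143.

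Of the spindle genes *Kif11*, the motor that pushes the spindle poles apart, was at 42.9 and 32.2 CPM in SCs and 6.9 and 8.66 CPM in differentiating cells. *Tpx2*, which activates Aurora A on the spindle, had 95.7 and 67.3 CPM against 12.5 and 15.6 CPM. The motors of the central spindle, *Kif23* and *Kif20a*, had ratios of 0.125 and 0.172, and 0.141 and 0.126. *Kif2c*, a microtubule depolymerase gene, had 0.131 and 0.175, and *Kif4*, whose motor binds chromosomes, 0.166 and 0.33. *Kif20b* kept the most of this group, 0.332 and 0.418. *Nusap1*, whose promoter lacked both motifs, was at 114 and 114 CPM in SCs and had ratios of 0.125 and 0.158. *Hmmr*, which encodes a spindle-associated protein, stood higher in endocrine than in differentiating cells, at 14.1 and 12.2 CPM against 4.79 and 3.41 CPM. Its level was 29.4 and 18.6 CPM in the POMC, 18.6 and 13.5 CPM in the POU1F1 and 4.02 and 3.62 CPM in the gonadotroph lineage.

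In cytokinesis, *Anln* (ENSMUSG00000036777, mm10 chromosome 9 from 22332012 to 22389188), the scaffold of the cleavage furrow, was at 24.6 and 18.1 CPM in SCs and 1.74 and 3.02 CPM in differentiating cells. That is a ratio of 0.0709 (0.0428 to 0.112) and 0.166 (0.105 to 0.255), from 24 and 31 UMIs in differentiating cells. *Ect2*, the exchange factor that activates RhoA at the furrow, had ratios of 0.131 and 0.181.

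The genes of chromosome structure were together at 0.22 and 0.289 of their SC level in differentiating cells. *Top2a* (ENSMUSG00000020914, mm10 chromosome 11 from 98992943 to 99024189), which untangles sister DNA, was at 192 and 183 CPM in SCs and 23.7 and 40.3 CPM in differentiating cells. *Mki67* (ENSMUSG00000031004, mm10 chromosome 7 from 135689784 to 135716361), whose product coats mitotic chromosomes, was at 142 and 113 CPM against 15.8 and 28.7 CPM. Both had a higher female than male level in differentiating cells but not in SCs. Few differentiating cells held many UMIs of the 40 genes, as given below, and the part of doublets in this difference was not tested. The condensin genes *Smc2* and *Smc4* had ratios of 0.32 and 0.417, and 0.313 and 0.38. *Hmgb2* (ENSMUSG00000054717, mm10 chromosome 8 from 57511907 to 57515999), which encodes a chromatin protein, was at 1074 and 922 CPM in SCs and 244 and 258 CPM in differentiating cells.

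**Figure D3:**
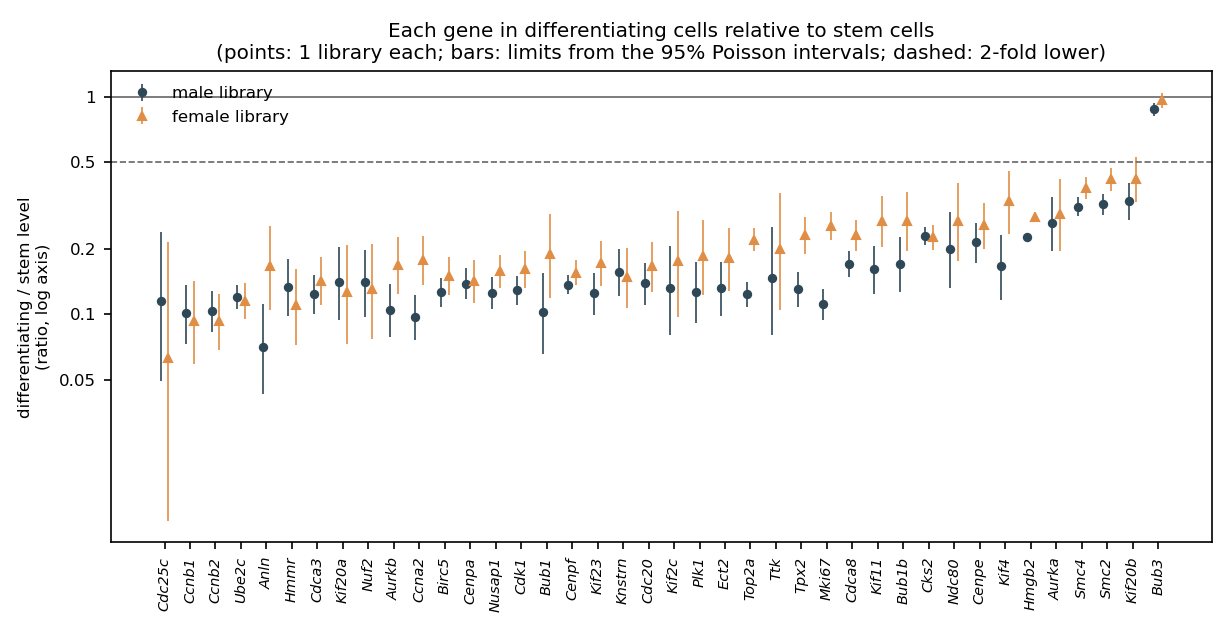
Ratio of the level in differentiating cells to that in SCs (log axis) for each of the 40 genes in the male and the female library, with limits from the 95% Poisson intervals. All genes but *Bub3*, at 0.875 and 0.963, lie below 0.5, and *Cdc25c* has wide limits.

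In mesenchymal cells the 5 genes outside the count were *Bub3* and, by a narrow margin among male cells, *Cdc25c* at 0.502, *Cenpe* at 0.501, *Kif20a* at 0.52 and *Anln* at 0.509 of the SC level. Their female ratios were 0.273 for *Cdc25c*, 0.39 for *Cenpe*, 0.354 for *Kif20a* and 0.331 for *Anln*.

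Other genes of the pathway followed in part. Of 48 further G2 and mitosis genes 40 were at least 2-fold lower in differentiating cells (14.0% of features), and 1, *Pttg1*, which encodes securin, was higher in both libraries, at 1.12 and 1.16 times the SC level. The highest of these genes in SCs were *Tubb4b* (515 and 406 against 329 and 278 CPM in differentiating cells), *H2afx* (360.4 and 258 against 108 and 98.8 CPM), *Cks1b* (209 and 158 against 130.2 and 113 CPM) and *Prc1* (172 and 134 against 22.9 and 24 CPM). Of 28 S phase genes 20 were at least 2-fold lower, and their summed level was 0.447 and 0.517 of that in SCs. The highest in SCs were *Dut* (271 and 204 against 153 and 129 CPM), *Slbp* (129.7 and 117 against 84.4 and 82.1 CPM), *Hells* (114 and 87.2 against 30.2 and 27.1 CPM) and *Tyms* (102 and 80.1 against 36.1 and 38.5 CPM). In endocrine cells 36 of the further G2 and mitosis genes and 18 of the S phase genes were at least 2-fold lower (12.2% of features), and in mesenchymal cells 37 and 15 (12.5%).

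Of 13 genes that act on G2 and mitosis promoters, 3 were at least 2-fold lower in differentiating cells in both libraries, against 14.0% of features. They were *Foxm1* (11.4 and 8.9 against 2.03 and 1.75 CPM), *Mybl2*, the gene of B-MYB (5.95 and 4.46 against 0.363 and 1.17 CPM), and *Rbl1*, which encodes p107 (19.9 and 16.3 against 8.06 and 6.33 CPM). The regulators highest in SCs lay closer to 1, with *Rbbp4* at 1.18 and 1.2, *Nfyb* at 1.09 and 1.01, *E2f4* at 0.878 and 0.992 and *Lin37* at 1.22 and 1.24. Of 7 brakes on CDK1 and the cell cycle 2 were at least 2-fold higher in differentiating cells (4.49% of features), *Gadd45g* at 3.87 and 3.97 and *Cdkn1c*, the gene of p57, at 2.26 and 2.07. *Btg2*, an antiproliferative gene, was at 1.32 and 1.43 and *Cdkn1b*, the gene of p27, at 0.64 and 0.653. *Pkmyt1*, whose kinase holds CDK1 inactive, was the brake that was 2-fold lower, at 0.299 and 0.323. In endocrine cells 3 of the regulators and 2 of the brakes were at least 2-fold lower (12.2% of features). In mesenchymal cells 3 and 1 were lower (12.5%), with 1 brake higher there (9.70%). Counts in lists of 13 and 7 genes are small, and no difference from these shares was tested.

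Most cells of each class held few UMIs of the 40 genes, and a minority held many. For a comparison at equal depth 5000 UMIs were drawn from each cell, and 3627 male and 287 female cells were too shallow for it. The median SC then had 3 and 3 such UMIs, the 90th percentile was 50 and 30, and the highest cell had 252 and 227. In differentiating cells the 90th percentile was 5 and 5, in endocrine cells 5 and 4 and in mesenchymal cells 5 and 4. Cells with 10 or more are called rich here.

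Rich cells were 24% (22.5 to 25.5) of male and 16.4% (15.2 to 17.7) of female SCs, with exact binomial (Clopper-Pearson) 95% limits. In differentiating cells they were 2.3% (1.43 to 3.5) and 2.13% (1.22 to 3.44). In endocrine cells they were 5.1% (4.12 to 6.23) and 2.77% (1.56 to 4.52), and in mesenchymal cells 7.24% (5.29 to 9.63) and 4.21% (2.26 to 7.09). The limits of these 3 classes overlapped among female cells, while those of SCs stood apart. Unthinned, the shares were 37.7% and 26.7% of SCs, 19.98% and 15.8% of differentiating, 18.8% and 11.8% of endocrine and 16.2% and 8.85% of mesenchymal cells. By lineage the thinned share was 6.96% (5.21 to 9.08) and 4.03% (2.03 to 7.1) in the POU1F1 lineage. It was 6.83% (3.78 to 11.2) and 1.57% (0.191 to 5.57) in the POMC lineage. In the gonadotroph lineage it was 3.09% (2.03 to 4.49) and 1.41% (0.171 to 5). Rich female cells numbered 11 of 273, 2 of 127 and 2 of 142, and their limits overlapped. Few rich cells thus entered the female lineage levels given above.

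**Figure D4:**
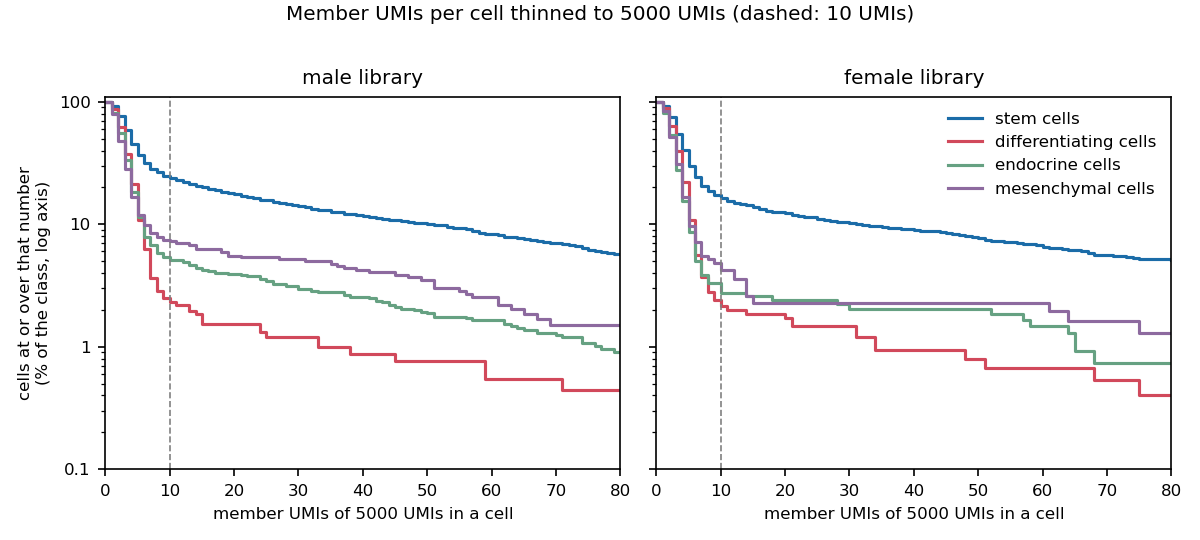
Share of cells (percent) that hold at least the number of UMIs of the 40 genes on the horizontal axis, by class, after thinning each cell to 5000 UMIs. At 10 UMIs the SC curves stand at 24% and 16.4% and those of differentiating cells at 2.3% and 2.13%.

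Rich cells were also deep cells. Before thinning, rich SCs had medians of 17342 and 13199 UMIs, against 9992 and 8838 in SCs with 0 or 1 UMI of the 40 genes. Rich differentiating cells had 25172 and 25858 against 13925 and 12305. The doublet scorer Scrublet marked 1.79 and 4.86 percent of rich SCs, but 9.52 and 43.8 percent of rich differentiating, 24.4 and 40 percent of rich endocrine and 16.3 and 53.8 percent of rich mesenchymal cells. Without the marked cells rich cells were 2.21% and 1.27% of differentiating, 4.29% and 1.78% of endocrine and 6.98% and 2.13% of mesenchymal cells. Without cells with markers of more than 1 class they were 1.83% and 1.78% of endocrine and 4.25% and 2.26% of mesenchymal cells, and with class limits doubled 1.16% of male differentiating cells. No class here is known to lack these transcripts, so the part of free RNA in the low levels was not tested.

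Rich SCs were then set against S phase, by the 28 S phase genes, a list that shares no gene with the 40. Of the rich SCs 58.2% and 59.5% also held 10 or more thinned S phase UMIs. SCs over both limits were 14% and 9.78% of all, those over the limit for the 40 genes alone 10.02% and 6.67%, and those over the S phase limit alone 6.55% and 5.39%. SCs were also split by S phase UMIs alone, into 620 and 512 cells with 10 or more and 831 and 1079 cells with 0 or 1. The 40 genes together were at 5382 and 5979 CPM in the first and 1603 and 1035 CPM in the second, a ratio of 3.36 (3.23 to 3.49) and 5.78 (5.54 to 6.03).

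The genes differed in how far they followed S phase UMIs. *Top2a* was at 352 and 502 CPM in S-rich and 27.2 and 16.3 CPM in S-poor SCs, a ratio of 12.9 (10.1 to 16.7) and 30.8 (23.6 to 40.5). *Cdk1* was at 226 and 232 CPM against 25.3 and 10.9 CPM, or 8.94 and 21.3. *Aurkb* had ratios of 11.9 and 36.7, and *Ndc80* 22.2 and 38.3, from 5 and 6 UMIs in S-poor cells. At the other end *Cenpa* was at 65.5 and 50.8 CPM in S-rich and 66.2 and 35.6 CPM in S-poor SCs, a ratio of 0.989 (0.762 to 1.28) and 1.43 (1.03 to 1.96). *Ccnb2* had ratios of 1.42 and 1.95, *Cenpe* 1.17 and 2.26, *Knstrn* 1.29 and 2.44 and *Cdc20* 1.25 and 2.78. *Ccnb1* was at 22.3 and 30.5 CPM against 18.1 and 8.34 CPM, or 1.23 (0.765 to 1.98) and 3.65 (2.16 to 6.25). Among male cells the limits of *Ccnb1*, *Cdc25c*, *Cenpa*, *Cenpe*, *Knstrn*, *Cdc20* and *Kif2c* included 1, and among female cells those of *Cdc25c*. The topoisomerase and CDK1 genes thus stood high where S phase UMIs were many, and *Cenpa* and *Ccnb2* were closer to even.

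**Figure D5:**
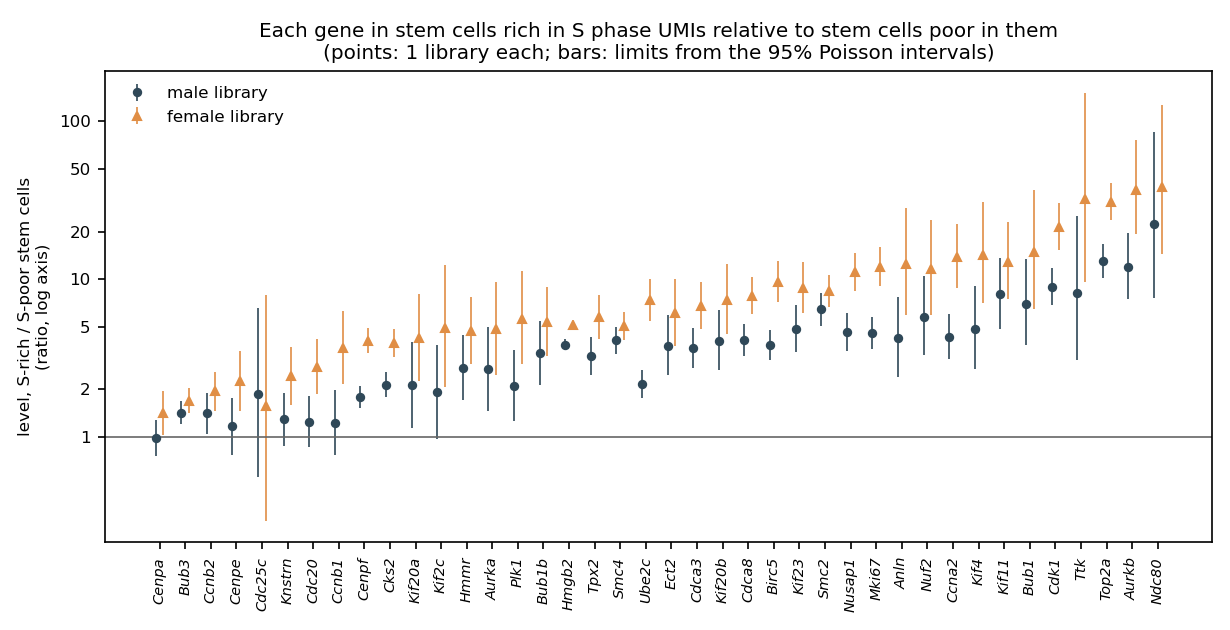
Ratio of the level of each of the 40 genes in SCs rich in S phase UMIs to that in SCs poor in them (log axis), in the male and the female library, with limits from the 95% Poisson intervals. *Cenpa*, at 0.989 and 1.43, lies at the low end and *Ndc80*, at 22.2 and 38.3, at the high end.

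Other genes were read in cells rich and poor (0 or 1 UMI) in the 40 transcripts, as a description, since these cells were chosen by the 40. Over all cells the 10 genes with the largest ratio, by its smaller value in the pair of libraries, were *Pbk*, *Hist1h3c*, *Pclaf*, *Knl1*, *Depdc1a*, *Cdc6*, *Troap*, *Esco2*, *Cep55* and *Hist1h3b*. *Pclaf*, whose product binds the replication clamp PCNA, was at 532 and 533 CPM in rich and 1.64 and 0.603 CPM in poor cells. *Pbk*, a mitotic kinase gene, was at 159 and 186 CPM in rich and 0.431 and 0.482 CPM in poor cells. *Knl1*, the kinetochore scaffold, was at 128 and 153 CPM in rich and 0.431 and 0.603 CPM in poor cells. *Depdc1a* had no UMI in the 2321 poor male cells, and was at least 277-fold higher in the 929 rich ones, against a floor of 3 UMIs over the poor cells.

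Within SCs the stem gene *Sox2* was at 625 and 721 CPM in rich and 655 and 802 CPM in poor cells. *Gadd45g*, which can inhibit cyclin B-CDK1, was at 85.5 and 64.9 CPM in rich and 357 and 203 CPM in poor SCs, a ratio of 0.24 (0.202 to 0.283) and 0.32 (0.257 to 0.397). *Cdkn1c* was at 353 and 360.4 CPM in rich and 589 and 601 CPM in poor SCs, and *Btg2* at 1183 and 1258 CPM in rich and 1946 and 2110.5 CPM in poor SCs. These 3 of the 7 brakes were lower in rich SCs of both libraries, and the share of all features lower there was not counted. *Wee1* and *Pkmyt1*, the inhibitory kinases of CDK1, went the other way, with ratios of 4.3 and 4.81, and 11.1 and 13.3. *Cdkn1b* was also higher in rich SCs, at 1.29 (1.04 to 1.61) and 1.15 (0.921 to 1.43), with female limits that included 1, and *Cdkn1a*, the gene of p21, differed in direction, at 0.731 (0.498 to 1.07) and 1.27 (0.875 to 1.84), with limits that included 1 in both libraries. The hormone transcripts *Gh* and *Pomc*, which SCs are not known to make, also differed, with *Gh* at 114 and 112 CPM in rich and 441 and 149 CPM in poor SCs and *Pomc* at 186 and 50.1 CPM in rich and 297 and 170.4 CPM in poor SCs, and the part of free RNA in the other values was not tested.

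Among SCs, the 663 and 1247 cells with 2 or more *Ednrb* UMIs had 5661 CPM and 4263 CPM of the 40 genes, and the 1465 and 1105 cells with 2 or more *Aldh1a2* UMIs and no *Ednrb* had 3732 CPM and 2710.4 CPM, a ratio of 1.52 and 1.57 that turned to 0.758 and 0.941 when cells were thinned before they were put into classes. All 40 genes were higher in the first without thinning (48.4% of features), and 0 were 2-fold higher (1.14% of features). The first cells had medians of 13273 and 9617 UMIs and the second 10667 and 9491. In thinned SCs *Ednrb* itself was at 70.1 and 151 CPM in rich and 69.2 and 179.5 CPM in poor cells. With the classes kept and the cells thinned afterwards, the order held, and rich cells were 34.5% and 21.3% of the first against 21.8% and 13.4% of the second. Thinning before the class rules, which also changes which cells belong to them, was the alternative that turned it.

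Between the libraries, the female SC level was 0.794 (0.786 to 0.802) of the male one. Of the 40 genes 39 were lower in female SCs (54.3% of features), and for 36 of them the limits lay below 1. The share of all features with limits below 1 was not counted. Of the 40, 0 were 2-fold lower (0.659% of features). *Ube2c* had a ratio of 0.615 (0.585 to 0.646), *Plk1* 0.637 (0.563 to 0.721) and *Top2a* 0.956 (0.914 to 1.0004), and *Nusap1* was the gene that was not lower. In differentiating cells the ratio of the sums was 0.995 (0.957 to 1.03), and of 30 genes with enough UMIs 15 were lower and 15 higher, while 55.9% of features were lower. In gonadotroph-lineage cells the ratio was 0.951 (0.889 to 1.02), in POU1F1-lineage cells 0.683 (0.654 to 0.713) and in mesenchymal cells 0.634 (0.602 to 0.668). *Mki67* and *Top2a*, at 1.82 and 1.7 times the male level in female differentiating cells, were at the high end of the 30 genes counted there, whose median was 1.003. Rich differentiating cells numbered 16 in the female and 21 in the male library. Scrublet marked 7 and 2 of them, and their part in these ratios was not tested. With 1 library per sex, sex and library cannot be told apart.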

How the data were processed

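Sorted cells were captured with 10x Chromium 3′ chemistry. According to the study's methods, the authors ran Cell Ranger with STAR against the mm10 transcriptome and an added eGFP sequence, and deposited raw UMI counts per gene and barcode, with no normalisation. The 40 genes, the other lists and the class rules were chosen with earlier results of these data known.

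Barcodes with fewer than 50 genes, or a mitochondrial share over the mean plus 3 SD of the library, were removed (159 of 10569 male and 85 of 5796 female). The first class rule that a cell met was used, by raw UMIs: mesenchymal (10 of *Dcn*, *Col1a1*, *Col1a2*, *Col3a1* and *Lum*), POU1F1 lineage (2 of *Pou1f1*), POMC lineage (50 of *Pomc* with 1 of *Tbx19* or *Pax7*), gonadotroph lineage (20 of *Cga*, or 2 of *Nr5a1* and *Gnrhr*), posterior lobe (2 of *Nkx2-1* and *Rax*), differentiating, then SC. UMIs were summed per class and library. The lowest and highest quotient of values within both Poisson intervals bound each ratio, and UMIs of 1 cell are not independent. A gene was counted as 2-fold lower if so in both libraries, among genes with 50 or more UMIs over both classes in each. Counts from 3′ ends were not divided by length. Doublets were scored with Scrublet in scanpy 1.11.5, the highest 0.8% per 1000 cells were marked, and marked cells were kept except where stated. The ratio limits and 2-fold calls were tested on independent Poisson counts simulated for male differentiating cells and SCs. Such counts cannot test for dependence among UMIs of 1 cell. Thinning was checked on male cells of the data, and the class rules, doublet marks and promoter matches were not tested in this way. All 40 genes were described by role. For the other lists the 4 genes highest in SCs were named, with a few named after their values were seen (*Pttg1*, *Foxm1*, *Mybl2*, *Rbl1*, *Pkmyt1*, *Wee1* and the hormone genes), and of other genes the 10 with the largest ratio between rich and poor cells. Identifiers are those of the files and gene positions are from GENCODE on mm10. RefSeq promoters were not found under the symbols *Tpx2*, *Cdc25c*, *Ccna2*, *Aurkb*, *Kif20a* and *Smc4*.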

Additional observations from a re-analysis of the deposited data

Results flagged for a closer look

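Cells that met no class rule entered no comparison between classes, though they were among the rich and poor cells counted over all cells. They are listed because they held UMIs of the 40 genes, which any detected UMI, free RNA included, would give, and the part of free RNA was not tested. The 3466 male cells without a class had 1899 CPM and the 609 female ones 1070.4 CPM, or 0.45 and 0.319 of the level in SCs. Their medians were 1325.5 and 6819 UMIs per cell. After thinning, 49 of the 468 male cells deep enough (10.5%) and 24 of 439 female cells (5.47%) had 10 or more UMIs of the 40 genes. Their cell type was not determined.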

How the results depend on the processing

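Differentiating, endocrine and mesenchymal levels stayed below that of SCs, and the female SC level below the male one, under the alternatives run. The order among the other 3 classes did not hold: endocrine cells in both libraries and female mesenchymal cells fell below differentiating cells without cells with markers of 2 classes, and female mesenchymal cells without the highest doublet scores. Female endocrine cells also rose above female mesenchymal cells after thinning before the class rules and with doubled class limits. The same held without the highest doublet scores (0.243 against 0.194) and without cells with markers of 2 classes (0.247 against 0.23). Values are for male and female cells. Thinning before the class rules gave ratios to SCs of 0.231 and 0.201 for differentiating, 0.281 and 0.344 for endocrine and 0.309 and 0.287 for mesenchymal cells, 0.808 for female to male SCs, and reversed that of *Ednrb*-rich to *Aldh1a2*-rich SCs to 0.758 and 0.941. Doubled class limits gave 0.169 for male differentiating, 0.275 and 0.305 for endocrine and 0.297 and 0.274 for mesenchymal cells, 1.29 and 1.24 for *Ednrb*-rich SCs, and rich shares of 26.6% of male SCs and 1.16% of male differentiating cells. The mean of the share per cell gave 0.232 and 0.268 for differentiating, 0.315 and 0.304 for endocrine and 0.443 for male mesenchymal cells, 1.61 and 1.52 for *Ednrb*-rich SCs and 0.812 for female to male SCs. Without *Hmgb2*, *Bub3*, *Smc2* and *Smc4* these were 0.142 and 0.185, 0.254 and 0.252, 0.372 and 0.267, 1.6 and 1.7 and 0.765, and rich shares 18% and 12% of SCs and 3.91% of male endocrine cells. Without the highest doublet scores they were 0.231 for female differentiating, 0.268 and 0.243 for endocrine and 0.41 and 0.194 for mesenchymal cells and 0.782 for female to male SCs, with 2.13% of female mesenchymal cells rich. Without cells with markers of 2 classes, added after seeing the data, they were 0.173 and 0.247 for endocrine and 0.288 and 0.23 for mesenchymal cells, with 1.83% of male endocrine and 4.25% of male mesenchymal cells rich. Cells with 2000 or more genes gave 0.373 for male mesenchymal cells. A limit of 5 UMIs gave rich shares of 36.7% and 29.9% in SCs, 10.7% and 10.9% in differentiating, 11.5% and 8.67% in endocrine and 12% and 9.71% in mesenchymal cells, and a limit of 20 gave 17.6% and 12.3% in SCs and 3.91% in male endocrine cells. The alternatives of the *Ednrb* ratio were also chosen after seeing the data. Counts of genes 2-fold lower, of 40, ranged from 37 to 39 in differentiating, 34 to 39 in endocrine and 30 to 39 in mesenchymal cells, and of the 36 left without the 4 genes above they were 36, 36 and 32. Of 1195 ratios of single genes under the alternatives 1193 were below 1, and the other 2 were of *Bub3*. The cause of these shifts was not tested. No paired analysis was possible because each sex had 1 library, which also left no library to leave out.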
